A study of Homo sapiens with 17 samples.

Results

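The 10 genes described here encode factors of protein synthesis: EEF1A1, EEF2, EEF1G, EEF1B2, EIF4A1, EIF4A2, EIF4G2, EIF1, TPT1 and PABPC1. They were listed by function, as highly transcribed genes of which many have pyrimidine tracts at their starts. A pausing site was counted for a gene when it lay inside the gene's GENCODE 29 span (GRCh38) on the same strand. Of 158141 positions listed in any of 4 tables, 643 lay in these genes. Each table comes from HEK293 cells, an established line derived from human embryonic kidney, assayed by time-variant precision run-on sequencing. In this assay permeabilised cells extend their nascent RNAs for a set run-on time. The last base of each RNA is taken as the place where an RNA polymerase stood. Run-on lasted 0.5, 2, 8 or 32 min, with sarkosyl in the buffer or without it, and the labels name no other treatment of these libraries. Sarkosyl, an anionic detergent, removes much of the protein bound to DNA but leaves transcribing polymerases engaged. Each of 4 tables, called series below, gives a pausing time per site over the run-on times of a replicate number: sarkosyl replicates 1 and 2 and sarkosyl-free replicates 1 and 2. The unit of the pausing time is not stated in the sources used here, so times are given as deposited.

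Translation factors bring ribosomes to messenger RNAs and move them along. Elongation factors deliver aminoacyl-tRNA and translocate the ribosome, and initiation factors unwind the 5′ leader and select the start codon. Their genes are transcribed at high rates in dividing cells. Many of their mRNAs begin with a C followed by a run of pyrimidines, the 5′ terminal oligopyrimidine tract, which couples their translation to growth signalling. Several of the genes also host small nucleolar RNAs (snoRNAs), guides for the modification of ribosomal RNA that are cut out of introns.

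EEF1A1 (chr6:73515750-73523797, minus strand) encodes the factor that carries aminoacyl-tRNA to the ribosome. EEF1B2 (chr2:206159585-206162928, plus strand) and EEF1G (chr11:62559601-62574086, minus strand) encode subunits of the complex that recharges it with GTP. EEF2 (chr19:3976056-3985469, minus strand) encodes the translocase. EIF4A1 (chr17:7572706-7579005, plus strand) and EIF4A2 (chr3:186783205-186789900, plus strand) encode RNA helicases of the cap-binding complex. EIF4G2 (chr11:10797050-10809110, minus strand) encodes a scaffold related to eIF4G that lacks cap binding through eIF4E. EIF1 (chr17:41688885-41692668, plus strand) encodes a factor of start codon selection. TPT1 (chr13:45333471-45341370, minus strand) encodes a protein associated with elongation factors, and PABPC1 the cytoplasmic poly(A)-binding protein.

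The annotated starts show which of these genes begin with a pyrimidine tract. Below are 15 bases before and 15 from the RefSeq start (GRCh38.p14), with a run of C and T that starts with C and holds at least 4 more pyrimidines in capitals. The first 5 windows have the tract at the start itself (in TPT1 the run extends 1 base upstream), EIF1 has a run that begins 7 bases upstream of the annotated start, and EEF1G has none. Not printed are EIF4A1 and another start of EEF1B2, which have no run, and EIF4G2, where a run begins at base 2 of 1 start and the other has none.
EEF1A1, chr6:73521018-73521047, minus strand: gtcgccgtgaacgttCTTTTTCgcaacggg
EEF2, chr19:3985449-3985478, minus strand: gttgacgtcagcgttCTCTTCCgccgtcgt
EEF1B2, chr2:206159880-206159909, plus strand: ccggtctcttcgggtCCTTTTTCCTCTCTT
EIF4A2, chr3:186783562-186783591, plus strand: gttgggcgccgctgtCTTTTCagtcgggcg
TPT1, chr13:45341169-45341198, minus strand: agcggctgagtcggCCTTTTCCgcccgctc
EIF1, chr17:41688870-41688899, plus strand: aggcaccgCCCCTCTgccccagtcactgag
EEF1G, chr11:62573877-62573906, minus strand: tctcccgggcggcttactttgcggcagcgc
On the sense strand, 5 of 9 members with a RefSeq window began with C and 4 pyrimidines at an annotated start, in 5 of 11 windows. That pattern was at a start in 1399 of 27296 other genes, and in 4.06% of their 35105 windows. The looser run in capitals above began within 10 bases of a start in 7 of the 11 member windows and in 33.5% of those of other genes. The letters TATA, which read the same on both strands, began 40 to 22 bases before a start in 7 of the 9 genes. These were 7 of the 11 windows. Among other genes TATA stood there in 2060 of 27296, and in 6.03% of the windows. EEF1G and EIF4G2 lacked TATA there. These matches describe the letters of the windows and were not tested against pausing. The genes were listed as a set in which many starts have such tracts, so the comparison of tracts with other genes is no independent result.

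Sites were dense in these genes. The 10 genes held 220 of 48566 sites in sarkosyl replicate 1, 252 of 47713 in sarkosyl replicate 2, and 267 of 66089 and 198 of 41769 in the sarkosyl-free replicates 1 and 2. EEF1A1 had 121 positions in the union of the series, EIF4A2 111, EEF2 96, EIF4A1 78, TPT1 63, EIF1 54, PABPC1 50, EIF4G2 31, EEF1G 28 and EEF1B2 11. Per kilobase of gene, EEF1A1 carried 5.22 and 5.34 sites with sarkosyl and 7.70 and 5.47 without. The median over coding genes with a site was between 0.060 and 0.077 per kilobase in the 4 series. Those genes had a median of 2 or 3 sites, and the comparison is not matched for gene length. Among 19969 protein-coding genes ranked by sites per kilobase, EEF1A1 had ranks 62 and 72 under sarkosyl and 35 and 34 otherwise. EEF1G and PABPC1 were the sparsest members. EEF1G had 0.35 and 0.48 sites per kilobase with sarkosyl and 0.97 and 0.41 without, and PABPC1 0.19 and 0.57, and 0.65 and 0.43. The annotated span of PABPC1 is 36.99 kb, and 16 of its 50 positions lie past the end of its reference transcript. The longest replicated site of PABPC1 in each buffer is among them, and the values given for this gene include them. Read depth at these genes is unknown. They were listed as highly transcribed genes, so their density is not independent of the choice of genes.

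The members did not share a direction in their number of sites between the buffers. EEF2 had 39 and 45 sites with sarkosyl and 22 and 19 without it. EIF1 had 27 and 26 with it and 14 and 10 without, and EIF4A1 had 38 and 43 with it and 22 and 26 without. These 3 genes had more sites in both sarkosyl series than in either other series, as did 15.9% of the 1562 protein-coding genes with at least 3 sites in every series. TPT1 went the other way, with 13 and 16 sites against 36 and 25. EIF4A2, with 34 and 37 against 49 and 40, and EEF1A1, with 42 and 43 against 62 and 44, did so too. These 3 genes had fewer sites in both sarkosyl series, as did 26.6% of the same coding genes. With 2 series in each buffer these counts were not tested.

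**Figure D1:**
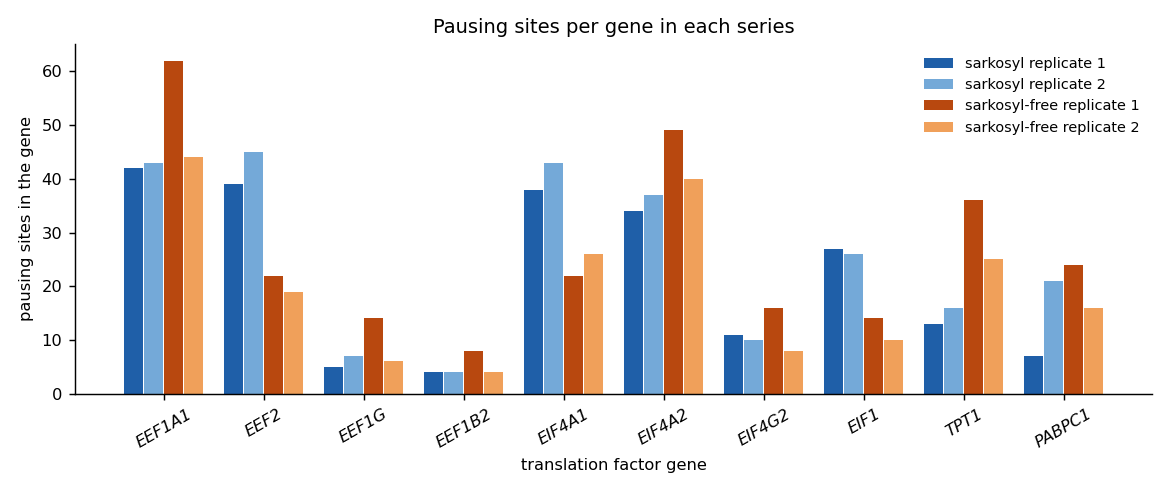
Number of pausing sites (vertical axis) in each of the 10 genes, with 1 bar per series. EEF2, EIF4A1 and EIF1 have taller bars in both sarkosyl series, and EEF1A1, EIF4A2 and TPT1 in both sarkosyl-free series, although in EEF1A1 the second of these stands only 1 site above.

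Sites of members stood close together. The median distance from a member site to the nearest other site of its series was 30.5 and 51 bases under sarkosyl, and 39 and 55 otherwise. In other coding genes it was 252 and 448.5 bases with sarkosyl and 699 and 1115 without. Positions within a gene are therefore neighbours in a few kilobases and are not replicates.

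The sites lay along the whole transcription unit, and a larger share of them than of other coding sites lay in annotated 3′ untranslated regions. Such regions of the reference transcript held 24.1% and 20.6% of member sites with sarkosyl and 28.1% and 28.8% without. The same shares in other coding genes were 7.25% and 7.79%, and 8.50% and 10.4%. The difference was not tested, and the shares are not adjusted for the length of these regions. EEF1A1 supplied 51 of these positions, TPT1 48 and EIF1 32. Per kilobase of 3′ untranslated region, EEF1A1 held 24.72 positions, EIF1 17.34 and TPT1 12.25. Their coding sequence held 14.43, 17.7 and 15.5 per kilobase. In EEF1A1 all 51 lay past the end of its shortest CCDS transcript, in the 1771 bases that a longer annotated transcript adds, and in TPT1 49 positions lay past such an end. Without these 2 genes the mean share was 14.7% with sarkosyl and 12.1% without, an alternative added after seeing the data. EEF1G was the opposite case: its 28 positions were all intronic. All 28 EEF1G positions lie inside the annotated gene AP002990.1 on the same strand, and 77 of the 78 EIF4A1 positions lie inside SENP3-EIF4A1, so these sites cannot be assigned to 1 transcript.

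Introns held 36.4% and 42.5% of member sites with sarkosyl and 33.3% and 37.9% without. In other coding genes the intronic share was 40.9% and 47.5%, and 56.2% and 52.6%. Coding exons held 17.3% and 17.5%, and 20.2% and 11.6%, of the member sites. EEF2 had 33 coding-exon positions over 2574 coding bases, which is 12.8 per kilobase, against 7.68 per kilobase in its introns. In EEF1A1 the 5′ untranslated region of the reference transcript lies in its first exon and held 33 positions over 992 bases. Whether other annotated transcripts splice this region was not examined, so these sites may be intronic in them. Sites inside small RNA genes are counted apart from introns here.

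**Figure D2:**
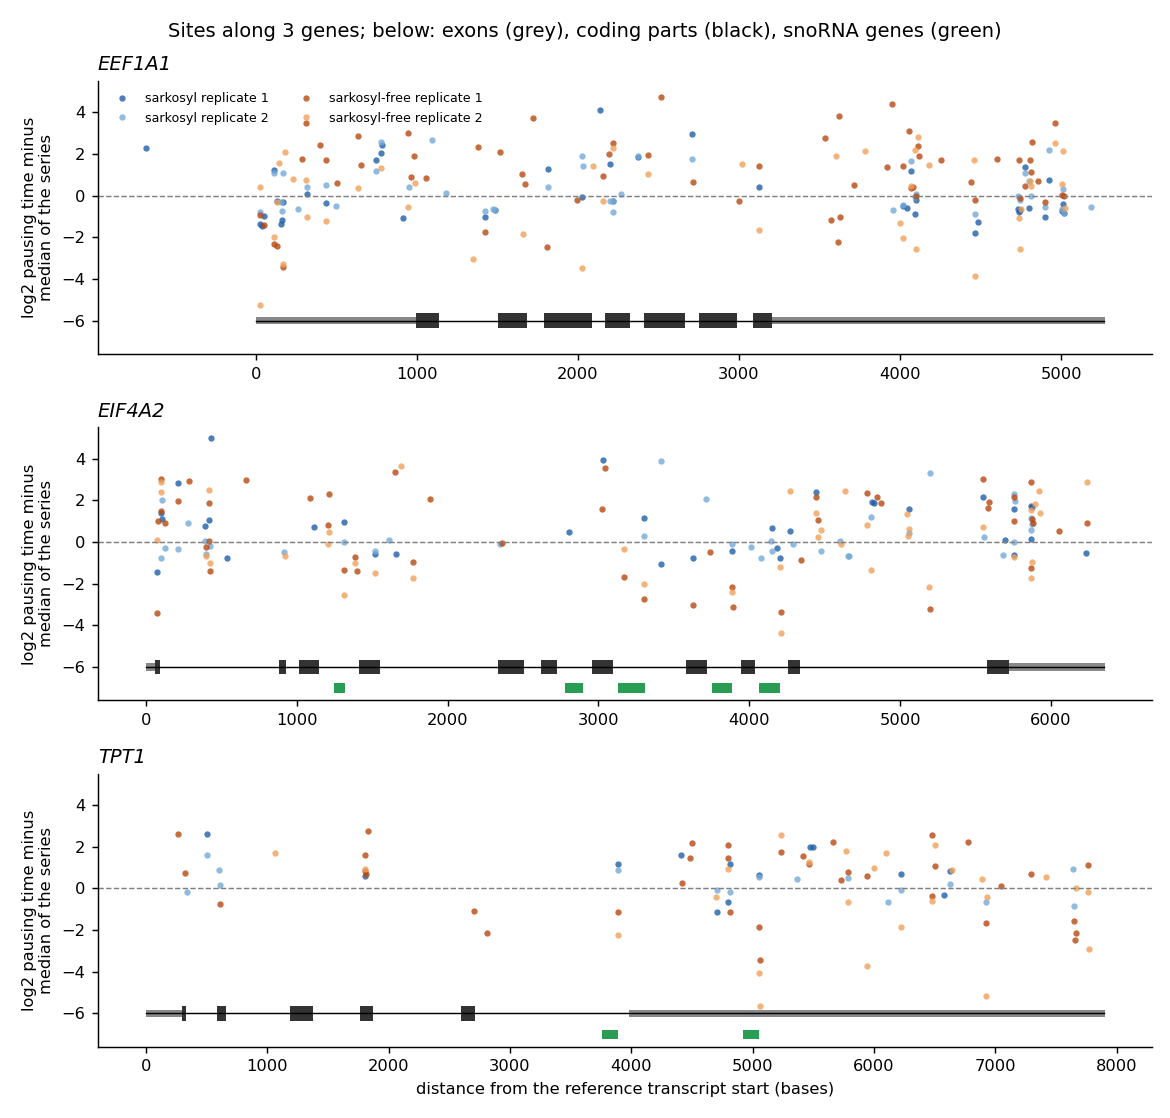
Log2 pausing time of each site minus the median of its series (vertical axis) against the distance from the reference transcript start in bases, for EEF1A1, EIF4A2 and TPT1. Points are coloured by series, and exons, coding parts and snoRNA genes are drawn below. EEF1A1 and TPT1 carry many sites over their long 3′ exons, and low sarkosyl-free points of EIF4A2 and TPT1 stand at the ends of snoRNA genes.

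The region just after a start was not where most of these sites lay. Of member sites, 36.4% and 34.9% with sarkosyl lay 0 to 300 bases past any annotated start of their gene, a mean of 35.6% ± 1.02 (SD, n = 2). Without sarkosyl the shares were 29.6% and 30.3%, a mean of 29.9% ± 0.506 (SD, n = 2). In other coding genes the shares were 45.4% and 35.9%, and 24.2% and 24.1%. Counted from the outermost annotated start alone, the member means were 9.99% and 6.53%. These genes have many annotated internal starts, so the figure depends on which starts are used.

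Sites within the first 60 bases of the reference start had short pausing times in all 4 series. The reference start is not in every gene the RefSeq start with the tract printed above. It is chr2:206159605 in EEF1B2 against chr2:206159895, chr13:45341370 in TPT1 against chr13:45341183, and chr3:186783547 in EIF4A2 against chr3:186783577. In these genes the windows of this paragraph do not count from the starts printed above. Their median was 0.661 over 10 sites in sarkosyl replicate 1, 0.766 over 9 in sarkosyl replicate 2, and 0.836 and 2.12 over 8 sites each in the sarkosyl-free replicates 1 and 2. Relative to the median of all sites of the series, these are log2 differences of -1.17, -0.81, -1.41 and -1.91. The early sites of other coding genes were also low, by -0.68, -0.40, -0.51 and -0.47. The members' early sites varied among themselves: at EIF4A1, 23 bases from its start, the times were 8.55 and 2.13 with sarkosyl, while at PABPC1, 34 bases from its start, they were 0.501 and 0.717 with it and 0.363 in sarkosyl-free replicate 1. From 61 to 150 bases the member medians were above the series median in every series, by 0.69, 0.52, 0.18 and 1.29 on the log2 scale, over 9 to 12 sites.

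The series differ in their level of pausing time. Over all sites the sarkosyl medians were 1.49 and 1.34 and the sarkosyl-free medians 2.23 and 8.00, so levels are read within a series. Member sites had medians of 1.84 and 1.37 with sarkosyl, and sites of other coding genes 1.53 and 1.37. Without sarkosyl the medians were 3.77 and 8.03 for members and 2.34 and 9.01 for other coding genes. The log2 difference of members from other coding sites was 0.14 ± 0.19 (SD, n = 2) with sarkosyl and 0.26 ± 0.60 (SD, n = 2) without it. Both differences were smaller than the spread between replicates, and the second had opposite signs in its 2 series, 0.69 and -0.17.

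Among the elongation factors, EEF1A1 had median times of 1.15 and 1.33 with sarkosyl and 4.77 and 10.9 without. The first pair lay below the median of all sites and the second above it. EEF2 had medians of 1.79 and 1.44 with sarkosyl and 5.26 and 6.33 without, and the replicates without sarkosyl fell on opposite sides of their series medians. EEF1G, with 5 to 14 sites in a series, had 1.85 and 1.25, and 2.93 and 10.5. EEF1B2, with 4 to 8 sites in a series, had 7.09 and 1.64 with sarkosyl and 0.775 and 1.65 without. Its sarkosyl-free medians were the shortest of the 10 genes in both series.

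Among the initiation factors, EIF4A1 had medians of 1.79 and 1.69 with sarkosyl and 1.39 and 6.28 without, below the series median in both sarkosyl-free series. EIF4A2 had 2.53 and 1.36, and 4.44 and 8.94. EIF1 had 2.14 and 1.29, and 1.95 and 4.42, again below the series median without sarkosyl. EIF4G2 had 1.94 and 1.24, and 4.90 and 4.57. The helicase genes EIF4A1 and EIF4A2 thus stood on different sides of the sarkosyl-free medians, a difference that was not tested. TPT1 had 2.66 and 1.51, and 3.68 and 8.13. PABPC1 (chr8:100685816-100722809, minus strand) had 1.29 and 1.06 under sarkosyl and 3.60 and 16.5 otherwise, and 16.5 was the longest gene median in sarkosyl-free replicate 2.

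**Figure D3:**
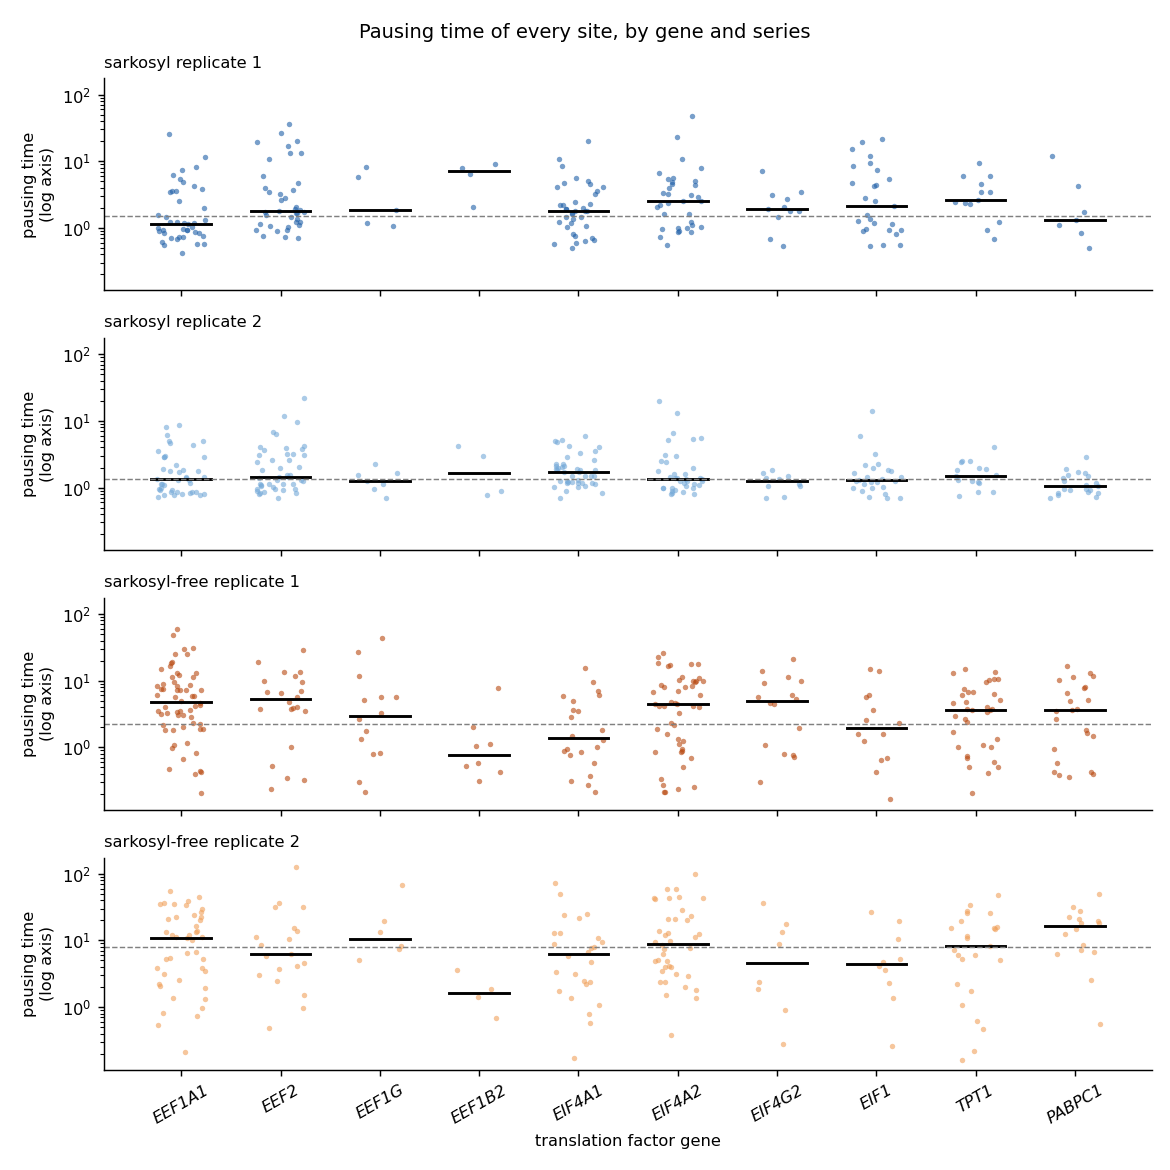
Deposited pausing time of every site (logarithmic vertical axis, unit not stated) for the 10 genes, in 1 panel per series. Black bars are gene medians and the dashed line is the median of all sites of the series. The sarkosyl-free panels spread wider and lie higher, and EEF1B2 lies below the dashed line in both of them.

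Within a buffer, site values of members kept their order between replicates to a moderate degree. Spearman's rho was 0.738 over the 112 member sites in both sarkosyl series and 0.562 over the 88 in both sarkosyl-free series. It was 0.677 and 0.454 over other coding sites. These are descriptions across neighbouring sites of 10 genes. The median absolute log2 difference between replicates, after each series was set to its own median, was 0.57 with sarkosyl and 1.25 without.

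In EEF2 and EIF4A2 very different times stood within a few bases. EEF2 held both its longest and its shortest replicated sarkosyl-free site in its 5′ untranslated region, 67 and 60 bases from the reference start. The site at chr19:3985402 had times of 28.6 and 125 without sarkosyl, and the site at chr19:3985409 had 0.532 and 0.951. Neither was listed with sarkosyl. The longest replicated sarkosyl site of EEF2 was in an intron at chr19:3984810, with 26.3 and 22.2. In EIF4A2 the longest replicated sarkosyl site was chr3:186789303, in the 3′ untranslated region, with 4.50 and 6.54, only 4 bases from chr3:186789299, which had 0.976 and 1.36. EIF4A2's longest sarkosyl-free site was chr3:186783645, 98 bases from the start in an intron, with 17.9 and 58.8. EEF1A1's longest sarkosyl-free site was chr6:73516055 in the 3′ untranslated region, with 25 and 45.5. In EIF1 the longest sarkosyl site, chr17:41692486, had 11.9 and 14.3. Its shortest sarkosyl-free site, chr17:41688922, 29 bases from the start, had 0.168 and 5.35, so its replicates lay on opposite sides of 1.

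In 5 of the 10 genes the shortest replicated sarkosyl-free site stood at the end of a snoRNA gene. In EEF1B2, EIF4A1, EIF4A2, EIF4G2 and TPT1, the site with the shortest mean sarkosyl-free time lay within 10 bases of a snoRNA's last base. These snoRNA genes lie inside the same transcription unit. In EEF1A1, EEF2, EEF1G, EIF1 and PABPC1 it lay elsewhere, and of these only EEF2 holds an annotated snoRNA gene. The same count is not given for other genes. With sarkosyl the shortest site lay at such an end in EEF1B2 alone, whose 2 replicated sarkosyl sites are both at snoRNA ends. GENCODE lists 15 snoRNA genes inside the members, and 13 had a site within 10 bases of their last base. For 7 of them it was on the last base itself. The ends below, from GENCODE 29 transcripts, are shown because these sites recur in all 4 series. Each runs from 20 bases before the site to the annotated end of the snoRNA, with the listed site in capitals. Whether an RNA end there marks a polymerase or the end of the cut-out snoRNA was not tested.
SNORD37 in EEF2, chr19:3982507-3982527, minus strand: gaagaaagcctgcgtctgagG
SNORA41 in EEF1B2, chr2:206162339-206162359, plus strand: atatatgtgtgacagacacaA
SNORD51 in EEF1B2, chr2:206161930-206161957, plus strand: tggatttgcttttttctgatTaagccag
SNORA48 in EIF4A1, chr17:7574827-7574847, plus strand: gttcatgccttggacacataG
SNORA81 in EIF4A2, chr3:186786832-186786852, plus strand: ttaagatttggtgcaatatcT
SNORD2 in EIF4A2, chr3:186784840-186784864, plus strand: agagaatactcattgctgatCactt
SNORD97 in EIF4G2, chr11:10801467-10801488, minus strand: agattatgagatatgagggcAa
RF00322 in TPT1, chr13:45336314-45336334, minus strand: attgaatagaggaatacaggA
SNORA31 in TPT1, chr13:45337480-45337500, minus strand: attgaattggggaatacatcT
Names with SNORA belong to the H/ACA class, which guides pseudouridylation, and names with SNORD to the C/D class, which guides methylation of ribose.

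These end sites had longer times with sarkosyl than without it in most cases, although the sarkosyl-free series as a whole have the longer times. The SNORD51 site had 7.94 and 3.01 with sarkosyl and 0.525 and 0.679 without. The SNORA41 site had 6.33 and 4.15, and 1.12 and 1.89. RF00322 had 2.38 and 1.95, and 0.608 and 0.473. In these 3 snoRNAs of EEF1B2 and TPT1 the buffers did not overlap. Nor did they overlap at the next 3. SNORA31 had 3.40 and 2.51, and 1.01 and 1.72, and SNORD97 had 1.79 and 1.35, and 0.771 and 0.902. SNORA67 in EIF4A1 had 1.21 and 1.49, and 0.867 and 1.09. The buffers did overlap at SNORA48, with 1.47 and 1.25 against 0.373 and 2.47, and at SNORD37, with 2.03 and 2.02 against 0.995 and 2.48. SNORA81, with 3.36 and 1.62 against 0.339 and 2.00, and SNORD2, with 2.90 and 1.35 against 0.887 and 1.36, overlapped too. So did SNORA63 in EIF4A2, with 1.11 and 1.27 against 0.506 and 1.52. Its site lies 2 bases past the snoRNA and is counted below among sites outside snoRNA genes. Of all 2967 sites listed in all 4 series, 29.2% were longer with sarkosyl with no overlap of the buffers. The share for small RNA sites outside the members is not given, and the sites of this paragraph were chosen after their values were seen.

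Counting all member sites within 10 bases of a small RNA end, 14 and 12 sites were listed with sarkosyl and 18 and 16 without. Of these, 4 and 3 were below the median of their series with sarkosyl, whereas all 18 and all 16 were below it without. Their medians stood 0.46 and 0.21 above the series median on the log2 scale with sarkosyl and -2.02 and -2.48 from it without. Member sites elsewhere had 0.29 and 0.03, and 0.91 and 0.23. The same class of site in other coding genes was split as well: 67 of 212 and 57 of 184 were below the series median with sarkosyl, and 222 of 242 and 205 of 216 without. The low sarkosyl-free times at snoRNA ends were thus seen outside translation factor genes too. Small RNA ends made up 6.36% and 4.76% of member sites with sarkosyl and 6.74% and 8.08% without, against 0.803%, 0.689%, 0.600% and 0.895% in other coding genes.

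Some of the member sites counted above without sarkosyl lay further past the snoRNA ends, at 6 positions 6 to 8 bases beyond the last base. These were at SNORA41 in EEF1B2, SNORA48 and SNORA67 in EIF4A1, SNORA63 and SNORA4 in EIF4A2 and RF00322 in TPT1. All 6 were listed in sarkosyl-free replicate 1, with times between 0.205 and 0.577, and 3 in sarkosyl-free replicate 2, with 0.160 to 0.387. None was listed in either sarkosyl series. In other coding genes the same window held 4 and 1 sites with sarkosyl and 29 and 9 without. The sarkosyl-free medians of those were 0.261 and 0.202, beside 0.236 and 0.172 for the members. The difference in number was not tested, since a site that a table does not list has no value. These sites enter the sarkosyl-free medians within 10 bases given above. On the last base alone, with 7 member sites in each series, the medians stood 0.67 and 0.54 above the series median with sarkosyl. Without it they stood -1.36 and -2.08 from it on the log2 scale.

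**Figure D4:**
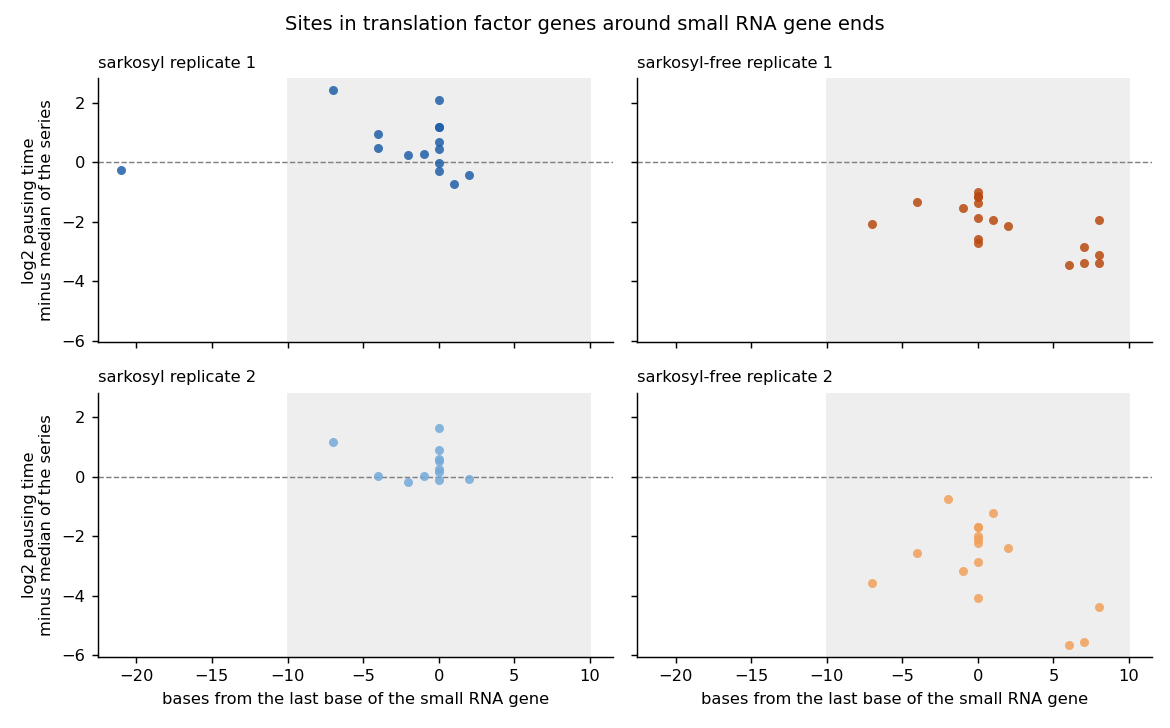
Log2 pausing time minus the median of the series (vertical axis) for member sites, against the distance in bases from the last base of the nearest small RNA gene, in 1 panel per series. The shaded band is 10 bases to either side. All points of the sarkosyl-free panels in the band lie below 0. They include points 6 to 8 bases past the end, where the sarkosyl panels hold none.

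Only 27 member positions were listed in all 4 series, and 10 of these lay inside snoRNA genes. Another 10 were in EEF1A1, in its 5′ untranslated part, a coding exon and the 3′ untranslated part. The limma fit over the 2967 sites shared by all series called 0 sites at an adjusted p of 0.05 and therefore 0 of the 27. This fit subtracts from each series its median over the 2967 shared sites. At an unadjusted p under 0.05 it gave 3 member sites longer and 4 shorter with sarkosyl. Over all shared sites these shares were 12% and 11.2%, so the members' 7 of 27 compare with 23.2% of all shared sites. All 10 sites inside snoRNA genes had a positive sarkosyl difference, with a median of 1.16 on the log2 scale and a range of 0.50 to 3.17. Of the 17 others, 4 were positive, with a median of -0.73. That direction depends on the centring. With each series centred on the median of all its sites, an alternative added after seeing the data, 10 of the 17 were positive, with a median of 0.71, and the 10 snoRNA sites all stayed positive, with a median of 2.60. At that centring 0 sites were called, and 709 of all shared sites were longer and 40 shorter at an unadjusted p under 0.05, with 8 and 1 in members. Among the shared sites that are not in members, 178 of 220 inside small RNA genes were positive, with a median of 1.17, and 1408 of 2720 others, with a median of 0.09. Centred on all sites these counts were 216 and 2139, with medians of 2.61 and 1.53. Without sarkosyl-free replicate 1 the count of positive snoRNA sites in members, centred on the shared sites, was 8 of 10.

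The 2 buffers did not overlap in the deposited times of 9 member sites that were longer with sarkosyl and 8 that were shorter. Over all shared sites the shares were 29.2% and 27.1%, close to those of the members. The 9 were 6 of the 10 sites in snoRNA genes and 3 of the 17 others. All 8 were among the 17 others. This split is not given for sites outside the members, so it is not read as particular to them.

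The 12 member sites with the largest differences had the same sign under both centrings and without centring, and the values below are centred on the shared sites. EEF1A1 had the site with the largest difference among the 27, in a coding exon at chr6:73518799. Its times were 1.23 and 1.14 under sarkosyl and 12.8 and 38.5 otherwise. The difference was -4.09 on the log2 scale (SE 0.83), with an adjusted p of 0.155 by limma. The next was EIF4G2 at chr11:10808881, upstream of the reference start and downstream of another annotated start, with 0.531 and 0.702 against 4.57 and 17.9 (adjusted p 0.155 by limma). EIF4A2 at chr3:186789299 had 0.976 and 1.36 against 9.90 and 4.85, and EEF1A1 at chr6:73516016 had 0.899 and 0.862 against 2.30 and 11.9. At all 4 sites both sarkosyl values were below both others. The EEF1A1 sites near its start went the other way: chr6:73520848 had 1.20 and 2.87 with sarkosyl and 0.208 and 0.825 without, and chr6:73520905 had 3.56 and 2.89 against 0.447 and 2.04. EEF1A1 at chr6:73520582 and EIF1 at chr17:41689493 were lower with sarkosyl, by -1.63 and -1.78 on the log2 scale. The bases around sites that are exonic in the reference transcript are shown because EEF1A1 sites of opposite direction have the same base at the site. The bases are from GENCODE 29 transcripts, with the site in capitals.
EEF1A1, lower with sarkosyl, chr6:73518789-73518809, minus strand: ggcaatgccaGtggaaccacg
EEF1A1, lower with sarkosyl, chr6:73520572-73520592, minus strand: catgttcggcGaggcggggcc
EEF1A1, higher with sarkosyl, chr6:73520838-73520858, minus strand: gaggccttgcGcttaaggagc
EEF1A1, higher with sarkosyl, chr6:73520895-73520915, minus strand: gctgcagtacGtgattcttga
EEF1A1, lower with sarkosyl, chr6:73516006-73516026, minus strand: caggtaaggcCtttaatagat
EIF4A2, lower with sarkosyl, chr3:186789289-186789309, plus strand: ggatgcagtgCtcgctgttgc
Reads of EEF1A1 may be shared with its processed copies. GENCODE lists 39 EEF1A1 pseudogenes, of which 10 held sites, 13, 19, 24 and 13 in the 4 series, and how the authors placed such reads is not given in the sources used here.

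**Figure D5:**
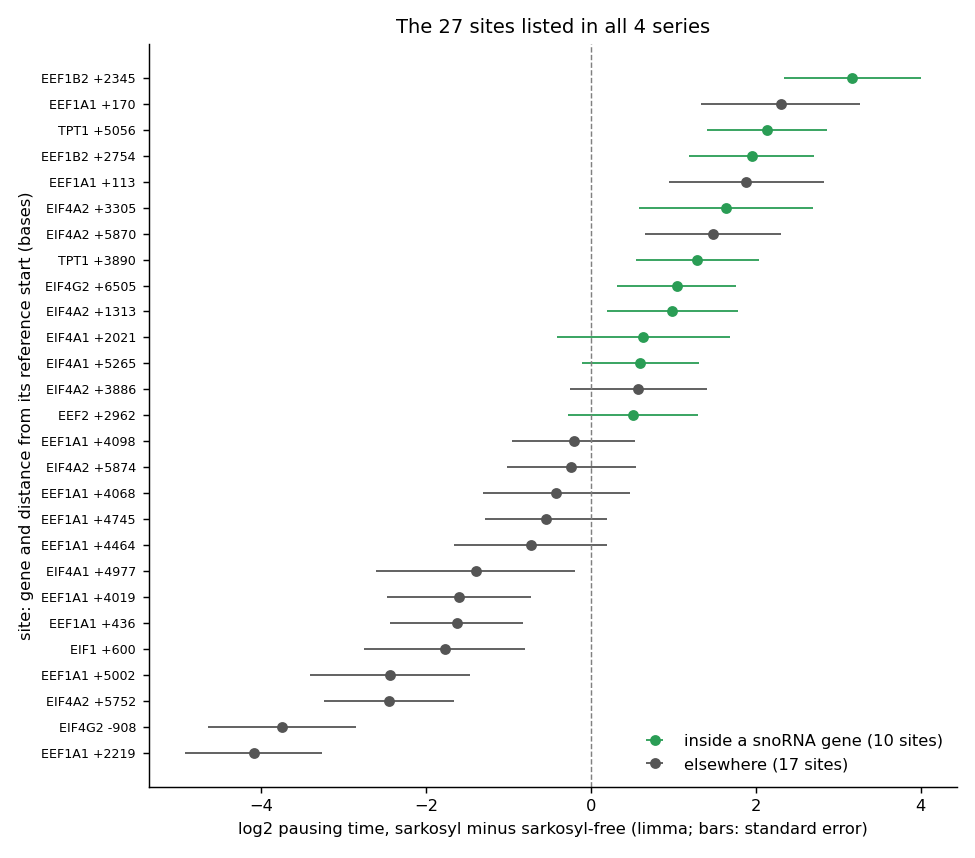
Log2 difference in pausing time, sarkosyl minus sarkosyl-free, of the 27 member sites listed in all 4 series, each series centred on its median over shared sites, with limma standard errors as bars. Sites are named by gene and distance from the reference start in bases. The 10 sites inside snoRNA genes (green) all lie to the right of 0, and 13 of the 17 others (grey) lie to the left, a count that falls to 7 when the series are centred on all their sites.

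The base at a site differed between the series, in members as in other genes. At member sites in exons of the reference transcripts, C was the last base in 76.9% and 69.7% of cases under sarkosyl. Otherwise it was so in 55.5% and 19.6%. G was at 19.7% and 20.2%, and at 38.1% and 75.5%. In exons of other coding genes C stood at 74.1% and 72.7%, and at 50.6% and 23.6%, and G at 23.5% and 22.8%, and at 46.4% and 73.8%. The spliced member transcripts themselves are 22.7% C and 25% G. T followed 41.0% and 47.1% of member sites under sarkosyl, and 43.9% and 56.9% otherwise. Which bases a series lists thus moves with the buffer and with the replicate, and the part of this in the differences above was not tested.

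Per gene, the limma fit on median log2 times called 0 of 1769 genes at an adjusted p of 0.05, and 0 of the 10 members. At an unadjusted p under 0.05, a level reached by 9.33% of all genes tested, 1 member, EEF1B2, was longer with sarkosyl and none shorter. Over all genes tested 7.86% were longer and 1.47% shorter at that level. The difference of EEF1B2 was 3.17 on the log2 scale (SE 0.79), with an adjusted p of 0.429 by limma, and it rests on 4 to 8 sites a series, among them the SNORD51 and SNORA41 ends. Without sites inside small RNA genes EEF1B2 no longer had 3 sites in every series and was not tested. PABPC1 had -1.14 (SE 0.55) and EEF1A1 -0.97 (SE 0.58), with adjusted p-values of 0.593 and 0.664 by limma. The other members were EIF4A1 at 0.82, EIF1 at 0.76, TPT1 at 0.13, EIF4G2 at -0.03, EIF4A2 at -0.19, EEF2 at -0.27 and EEF1G at -0.29. The median of the 10 was -0.11, against 0.14 over all genes tested. EEF1A1, EEF1B2 and PABPC1 kept their sign in every alternative in which they were tested, but not their size. With the more certain sites PABPC1 was at -0.05 (SE 0.24) and EEF1A1 at -0.24 (SE 0.22). With no centring EEF1B2 was at 1.59, PABPC1 at -2.72 and EEF1A1 at -2.55. The signs of EIF4A1, EIF1 and TPT1 reversed when the series were not centred, a step that moves the median difference of all genes from 0.14 to -1.44.

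Other translation factors, a list of 52 genes, gave 18 with enough sites to test. None of the 18 was called, and none reached an unadjusted p under 0.05 by limma. Of them 10 were longer and 8 shorter with sarkosyl, with a median of 0.06. The smallest unadjusted p-values were those of EIF2S2, a subunit of the factor that carries the initiator tRNA, at -1.12 (adjusted p 0.644 by limma), and EIF4G1, the main scaffold of the cap-binding complex, at 1.25 (adjusted p 0.671 by limma). The genes whose 4 series medians were nearest to the mean of the members were RPL17-C18orf32, at a Euclidean distance of 0.174 on the log2 scale, MALAT1 at 0.253 and RPL3 at 0.254. RPL3 encodes a protein of the large ribosomal subunit and MALAT1 a nuclear long noncoding RNA. The members' mean averages genes whose differences have both signs, among them EEF1B2 with 4 to 8 sites a series. The distances were not recomputed without EEF1B2, and nearness to the mean is not likeness to a single member.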

How the data were processed

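Time-variant run-on libraries of HEK293 cells, 16 in all, were summarised by the authors in 4 tables, 1 per buffer and replicate number, as inferred from the table names. Another listed sample, a treatment, was not analysed here. Per the submitters' processing notes, reads were handled with cutadapt 1.14, HISAT2 2.1.0, SAMtools and bedtools on hg38. The site calling rule and the model are not given in the sources used here. Per the file headers, a row gives a position, a strand, quantiles of an estimate and a pausing time, all taken here as a score without a stated unit. In all 204137 deposited rows the time was the reciprocal of the median, which has 3 decimals, so long times take few values. The tables hold no read counts, so depth is unknown and no counting interval is given. Value columns not mapped to a group numbered 0. The labels call the duplicates of the main experiment biological. They do not say this of the sarkosyl-free libraries, where p-values may measure technical spread. No batch is named in them, and any batch shared by all libraries of a buffer cannot be told apart from the buffer.

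Positions count from 1: 63 to 84 sites per series and strand fell on the last base of small RNA genes, and at most 22 on any other offset within 5 bases. Sites were assigned to GENCODE 29 genes on the same strand. Features follow 1 reference transcript per gene (CCDS, then APPRIS rank, support level and length), and distances count its first base as 0. Other coding genes means sites in protein-coding genes outside the members. Small RNA genes are snoRNA, snRNA, miRNA and scaRNA genes. Log2 times were compared between buffers with limma 3.58.1 in R 4.3.3 (lmFit and eBayes, Benjamini-Hochberg, threshold 0.05). Genes with at least 3 sites in every series entered by their median, and shared sites singly. Before a fit, the median over its genes or shared sites was subtracted from each series. Elsewhere, the median of a series is that of all its sites. In simulated data with 1769 genes and the observed spread, the gene fit recovered 0 of 200 changes of log2 2 and 148 of 200 of log2 4. Python 3.11.15, numpy 2.4.6, pandas 2.3.3 and matplotlib 3.10.9 were used. With 2 series a buffer, an exact permutation test cannot go below p = 0.333, so none is given.

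The members, the list of 52 other factors and the tests were chosen with earlier results of these data known. Named sites are the 12 shared member sites with the largest buffer difference and the longest and shortest site per gene among those in both series of a buffer. All 10 snoRNA sites in the 4 series, the SNORA63 site, the sites past snoRNA ends and the early sites at EIF4A1 and PABPC1 were chosen after their values were seen. Genes like the members are the 3 nearest to the members' mean profile. Start windows are from RefSeq (GRCh38.p14), where 9 of the 10 members matched, and other sequences from GENCODE 29 transcripts. Intron windows were not read, since no genome was used here. Alternatives covered the minimum of sites, mean or median, centring, quantile normalization, a replicate block, sites near starts, replicated, more certain or small RNA sites, and leaving out each series. Those on snoRNA ends, on 3′ untranslated regions and on centring shared sites by all sites were added after seeing the data.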

Additional observations from a re-analysis of the deposited data

Results flagged for a closer look

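Member sites inside small RNA genes lay above the median of both sarkosyl series and below that of both sarkosyl-free series. The mean of their medians was 0.31 on the log2 scale with sarkosyl and -1.84 without it, a difference of 2.15. Member sites within 10 bases of the last base of a small RNA gene, most of them the same positions, did likewise, with 0.34 and -2.25, a difference of 2.58. Both were singled out because every series of a buffer lay on its own side of 0. The difference was not tested.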

How the results depend on the processing

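Read depth is unknown, which limits every count of sites. With 2 series a buffer the gene fit could recover only very large changes, and sarkosyl-free replicates 1 and 2 differ in level and base composition. Called genes ranged from 0 to 99 over the fits that leave out a series, with 99 without sarkosyl-free replicate 1, and were 0 under all other alternatives. None of the 132 refits of single member genes passed the adjusted threshold. Called shared sites were 158 under quantile normalization (3 of them in members: EEF1A1 chr6:73518799, EIF4G2 chr11:10808881 and EEF1B2 chr2:206161950). They ranged from 0 to 1597 when a series was left out, with 1597 without sarkosyl-free replicate 1 (7 in members) and 660 without sarkosyl-free replicate 2 (12 in members). In these fits, as in the 99 genes, a buffer has 1 series, assumed to vary like the other pair, so the sarkosyl pair alone gives the spread. That pair differs less: the median replicate difference over member sites is 0.57, against 1.25 without sarkosyl. Such counts are therefore no measure of stability. With the replicate number as a block 161 shared sites were called, 2 of them in members, the EEF1A1 and EIF4G2 sites just named, and 0 genes. The numbers do not pair the samples: replicate 1 minus replicate 2, taken in each buffer, gave a correlation of 0.0134 across sites and 0.0566 across genes.

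Near-start shares were 24.1% with sarkosyl and 21.5% without for 150 bases, 46.8% and 40.2% for 500, 9.99% and 6.53% for the outermost start, 37.5% and 31.8% for replicated sites, and 38.6% and 32.3% without EEF1A1. Leaving out a series gave 34.9% to 36.4% and 29.6% to 30.3%. The difference from other coding sites reversed to -0.0509 with sarkosyl without sites near a start. Without sarkosyl it reversed to -0.0179 for the more certain sites. Leaving out a series, it ranged from 1.36e-06 to 0.27 with sarkosyl and from -0.17 (without replicate 1) to 0.69 without. Without sites at small RNA ends it was 0.13 and 0.43.

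Of the 132 refits of member genes 19 reversed in sign, and in each the cause was not tested. With replicated sites these were EEF2 (0.55), EIF4A2 (0.27), EIF1 (-0.21) and TPT1 (-0.15). With the more certain sites they were EEF2 (0.21) and EIF4G2 (0.19). With no centring they were EIF4A1 (-0.76), EIF1 (-0.82) and TPT1 (-1.45), by construction, since all genes shift. TPT1 was -0.0586 with a minimum of 1 site and -0.12 without small RNA genes, and EEF1G was 0.0898 without sites near a start. Leaving out a series gave -1.03 to 0.50 for EEF2, -0.58 to 0.20 for EIF4A2, -0.98 to 0.91 for EIF4G2 and -0.20 to 0.46 for TPT1. These reversed without sarkosyl-free replicate 1 in EEF2 (0.50), EIF4A2 (0.20) and EIF4G2 (0.91), without sarkosyl replicate 2 in EIF4A2 (0.17) and EIF4G2 (0.20), without sarkosyl replicate 1 in TPT1 (-0.18) and without sarkosyl-free replicate 2 in TPT1 (-0.20).

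At small RNA ends the buffer difference was 2.58, and 2.35 to 2.81 when a series was left out. Within 5 bases, which leaves out the sites 6 to 8 bases past the ends, it was 2.13. The count of shared snoRNA sites longer with sarkosyl was 8 to 10 when a series was left out. That of the 17 shared sites elsewhere was 4, 10 with centring on all sites and 4 to 6 when a series was left out. The share in 3′ untranslated regions was 22.4% and 28.4%, and 14.7% and 12.1% without EEF1A1 and TPT1. Leaving out a series gave 20.6% to 24.1% and 28.1% to 28.8%.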
